A study of Mus musculus with 18 samples.

Results

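Transcription factors that build or shape the macrophage lineage were followed in metastasis-associated macrophages (MAMs) of the mouse liver. They are Maf, Spi1, Cebpa, Cebpb, Irf5, Nr1h3, Pparg, Klf4 and Mitf, chosen by symbol, and all 9 were among the 13759 genes of the MAM count table. The MAMs came from liver metastases of female C57BL/6J mice, 8 to 10 weeks old, whose spleens had been injected with MC38 cells, a colon adenocarcinoma line from the same strain, and the livers were analyzed on day 20. Cells were digested from the metastases and sorted by FACS as CD45+CD11b+F4/80hi or as CD45+CD11b+F4/80int, the latter called F4/80low in the sample labels. Each subset was sequenced in 3 libraries of 21278959 to 32267015 counts, and the question was how F4/80hi MAMs differ from F4/80int MAMs. The labels name no altered gene and no treatment for either subset, and both subsets came from animals with metastases. The sources used here do not say whether the 3 libraries of a subset came from separate mice or how many livers were pooled, so p-values measure the spread between these libraries, which may be technical. The 12 libraries of sorted NK cells and ILC1 of the same model are used only at the end, to show how far the factors are restricted to macrophages.

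Macrophages arise through a small set of DNA-binding proteins. PU.1, the product of Spi1, opens myeloid enhancers together with C/EBPα and C/EBPβ, the products of Cebpa and Cebpb, and KLF4 and IRF5 act in monocytes and in the inflammatory response. MAF acts in the mature macrophage, where it restrains self-renewal, whereas the nuclear receptors LXRα (Nr1h3) and PPARγ (Pparg) respond to sterols and fatty acids and MITF controls lysosomal and osteoclast genes.

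Only Maf among the 9 factors was higher in F4/80hi MAMs, by 5.09-fold, and 5 were lower, namely Spi1, Cebpb, Irf5, Klf4 and Nr1h3. Cebpa, Pparg and Mitf were not called. A gene was called at an adjusted p under 0.1 in edgeR's quasi-likelihood test across all genes. The 6 of 9 factors called have to be read against all genes, of which 54.9% were called, 27.8% as higher and 27.1% as lower. The values of the 3 F4/80hi libraries lay outside those of the 3 F4/80int libraries for 1 factor that was higher and 4 that were lower, whereas 58.4% of all genes were separated in this way, 29.8% as higher and 28.6% as lower. The median log2 fold change of the 9 factors was -0.56, against 0.01 for all genes. Levels are given as CPM, counts scaled to a common library size, after TMM scaling, a correction for library composition, and all fold changes are F4/80hi relative to F4/80int.

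**Figure D1:**
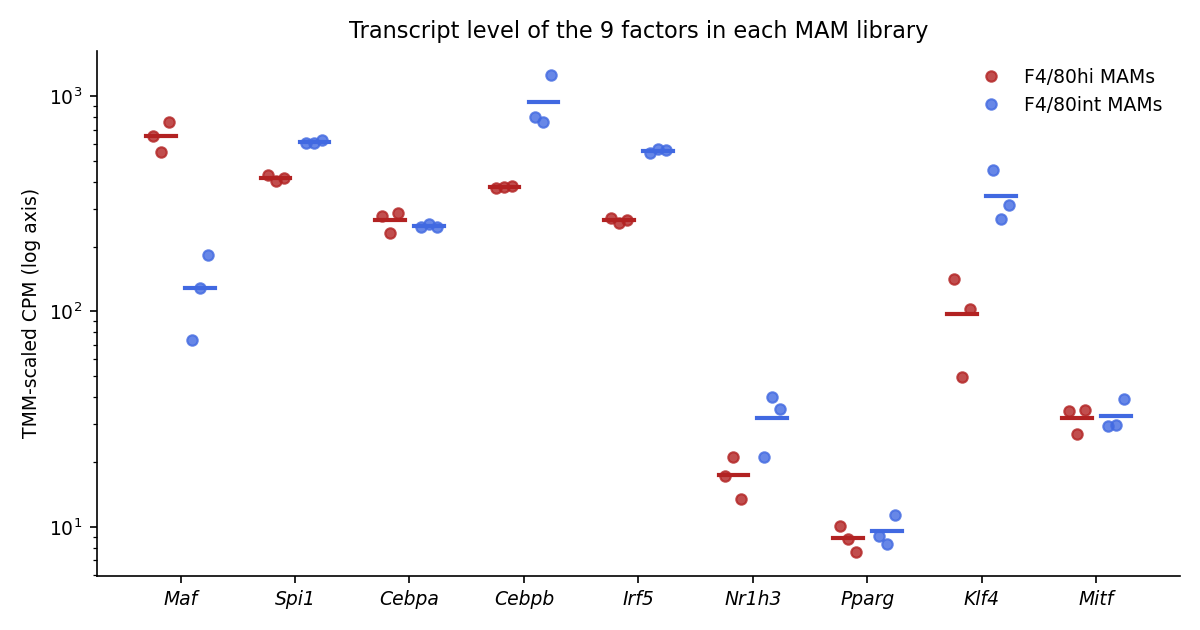
Level of each of the 9 factors in TMM-scaled CPM on a log axis, with 1 point per library, 3 libraries per subset, and the bar at the mean. The F4/80hi points of Maf lie above all F4/80int points, those of Spi1, Cebpb, Irf5 and Klf4 lie below them, and the points of the other 4 factors overlap between subsets.

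The gene of the sorting marker served as a check of the labels. Adgre1, which encodes F4/80, was at 901, 806 and 1167 CPM in the F4/80hi libraries and at 124, 160 and 153 CPM in the F4/80int libraries. The libraries therefore carried the sorting marker in the direction of their labels, with a log2 fold change of 2.71 ± 0.17 (SE) and an edgeR adjusted p of 8.63e-06. Libraries of 1 subset correlated at 0.9824 to 0.985 in log2 CPM, and libraries of different subsets at 0.8989 to 0.9221. Macrophage markers were detected in both subsets, with a summed level of 23500 to 32200 CPM in F4/80hi libraries and 7800 to 9840 CPM in F4/80int libraries, and 10 of 12 were called higher in F4/80hi MAMs. Adgre1 is among these 10, and the sorting gate fixed its direction.

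The subsets also differed in markers of other cells, and these differences lie beside every result that follows. All 10 markers of classical monocytes were called lower in F4/80hi MAMs, and their sum was 3730 to 4940 CPM against 7220 to 10300 CPM. Of 11 dendritic cell markers, 10 were called lower, with sums of 48.9 to 73.2 CPM against 779 to 1460 CPM, and among them Zbtb46, a defining factor of classical dendritic cells, was at a mean of 1.77 CPM against 55.1 CPM. Neutrophil markers summed to 80.8 to 116 CPM against 372 to 632 CPM, with 8 of the 9 measured called lower. Ly6g, Camp, Mpo and Elane were not among the genes of the table. Mmp9, at means of 8.85 and 353 CPM, made up most of the F4/80int sum. Csf3r, not called at means of 85.7 and 75.2 CPM, made up most of the F4/80hi sum. S100a9 was at 32.8, 1.91 and 5.41 CPM in the F4/80int libraries. Kupffer cell markers, which identify the resident macrophages of the liver, summed to 87.9 to 114 CPM against 65.0 to 76.3 CPM, and 5 of 9 were called higher and 3 lower. Folr2, at means of 79.6 and 4.70 CPM, made up most of the F4/80hi sum, and the defining markers Clec4f (1.28 and 0.51 CPM) and Timd4 (0.37 and 8.41 CPM) were low in both subsets. Epithelial markers, listed for tumor cells, summed to 9.63 to 12.8 CPM against 198 to 284 CPM over the 3 of 9 measured, with Cdh1 at means of 9.24 and 234 CPM and Epcam at 0.26 and 13.9 CPM, and no keratin of the list was among the genes of the table. NK cell markers (5 of 6 called lower; 1.42 to 4.50 against 3.16 to 30.0 CPM), endothelial markers (4 of 5 called lower and 1 higher; 17.1 to 19.9 against 46.4 to 49.8 CPM) and eosinophil markers (1 of 2 called lower; 0.957 to 1.56 against 8.18 to 8.88 CPM) were low in both subsets. T cell markers had 2 of 10 called lower, B cell markers 2 of 7 and hepatocyte markers 1 of 5 called higher. Of the 4 erythroid markers measured none was called by edgeR, and all were highest in replicate 3 of both subsets. Hbb-bs was at 16.9 CPM in F4/80hi replicate 3 and 38.4 CPM in F4/80int replicate 3, and at 1.87 CPM or less elsewhere. The part of these other cell types in the differences between subsets was not tested. In bulk libraries fewer cells of a type and less RNA per cell cannot be told apart.

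Maf, the large MAF protein of mature macrophages, was at 650, 549 and 762 CPM in F4/80hi MAMs and at 73.9, 128 and 184 CPM in F4/80int MAMs. The lowest F4/80hi library was therefore well above the highest F4/80int library. The means were 654 ± 106 and 129 ± 54.8 CPM (SD, n = 3 per subset), and the log2 fold change was 2.35 (95% CI 1.66 to 3.03; edgeR adjusted p = 0.000371). Of all genes tested, 314, or 2.28%, had a larger rise than Maf. The F4/80int libraries were spread more widely around their mean than the F4/80hi libraries, with coefficients of variation of 42.7% and 16.3%. The gene lies on the reverse strand at chr8:116409632-116434579 in GRCm39, the build used for all gene positions below.

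The small MAF proteins, which lack a transactivation domain and pair with other bZIP factors, were divided. Maff fell by 1.92 and Mafk fell by 0.91 on the log2 scale, whereas Mafg was called higher by 0.33, a call that was lost without F4/80hi replicate 1, F4/80hi replicate 2, F4/80int replicate 1 or F4/80int replicate 2 and at an adjusted p under 0.05. The family relatives described here were named for kinship, after their values had been seen.

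Spi1, the gene of the myeloid master regulator PU.1, was at 430, 403 and 416 CPM in F4/80hi MAMs and at 606, 608 and 627 CPM in F4/80int MAMs. All F4/80hi libraries lay below all F4/80int libraries, and the spread within each subset was small, with coefficients of variation of 3.27% and 1.85% against medians of 9.31% and 7.93% over the 10080 genes that averaged 5 CPM or more. The level was 1.47-fold lower in F4/80hi MAMs (log2 fold change -0.56 ± 0.08 (SE); edgeR adjusted p = 0.000669). Among the 5 factors that fell, Spi1 had the smallest change, and 18.7% of all genes had a larger fall. The related ETS factors Spib, which acts in B cells and plasmacytoid dendritic cells, and Spic, which acts in red pulp macrophages, were also called lower, by -3.94 and -1.45 on the log2 scale. Spic was scarce in both subsets, with means of 0.59 CPM in F4/80hi and 1.63 CPM in F4/80int MAMs. Spib was scarce only in F4/80hi MAMs, at a mean of 1.49 CPM against 21.9 CPM in F4/80int MAMs.

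Spi1 and Nr1h3 are neighbors on chromosome 2, at chr2:90912562-90946101 on the forward strand and chr2:91014394-91033417 on the reverse strand, 68292 bases apart. The 2 annotated protein-coding genes between them were also called lower in F4/80hi MAMs. Mybpc3, a gene of the heart sarcomere, was at a mean of 0.94 ± 0.05 CPM against 2.29 ± 0.27 CPM (SD, n = 3), a log2 fold change of -1.27 (edgeR adjusted p = 0.00408). Madd, a MAP kinase adaptor, was at 118 ± 0.94 CPM against 165 ± 24.7 CPM, a log2 fold change of -0.48 (edgeR adjusted p = 0.00782). The order from Spi1 to Nr1h3 was thus -0.56, -1.27, -0.48 and -0.89 on the log2 scale. Acp2, a lysosomal acid phosphatase gene whose annotated body overlaps Nr1h3 on the opposite strand, was instead called higher, with a log2 fold change of 0.82 (edgeR adjusted p = 0.000805).

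The paired C/EBP factors separated. Cebpb, the C/EBP factor of emergency granulopoiesis and cytokine genes, was at 374, 380 and 384 CPM in F4/80hi MAMs and at 803, 762 and 1259 CPM in F4/80int MAMs. The F4/80hi libraries were almost equal, and F4/80int replicate 3 was the highest of all. The means were 379 ± 4.64 and 941 ± 276 CPM (SD, n = 3), a 2.48-fold lower level in F4/80hi MAMs (log2 fold change -1.31 ± 0.18 (SE); edgeR adjusted p = 0.000637). Peds1, whose annotated body overlaps Cebpb on the opposite strand, had a log2 fold change of -0.58 (edgeR adjusted p = 0.0306), and the strand setting of the counting was not given in the sources used here.

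Cebpa, which commits progenitors to the myeloid lineage, was at 277, 233 and 288 CPM in F4/80hi MAMs and at 248, 253 and 247 CPM in F4/80int MAMs. The F4/80int values lay inside the range of the F4/80hi values. Its log2 fold change was 0.09, with a 95% confidence interval of -0.13 to 0.31 and an edgeR adjusted p of 0.478. The ratio of Cebpa to Cebpb per kilobase of exon was 0.422, 0.350 and 0.428 in F4/80hi libraries and 0.176, 0.190 and 0.112 in F4/80int libraries, without overlap. Of the other members of the family, Cebpe, a granulocyte factor, fell by 2.54 on the log2 scale from a mean of only 1.47 CPM in F4/80int MAMs. Cebpd and Cebpg were not called.

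Irf5, which drives inflammatory cytokine genes downstream of Toll-like receptors, was at 273, 257 and 266 CPM in F4/80hi MAMs and at 547, 568 and 559 CPM in F4/80int MAMs. Both subsets were tight, at coefficients of variation of 3.01% and 1.91%, and did not overlap. The level was 2.10-fold lower in F4/80hi MAMs (log2 fold change -1.07 ± 0.08 (SE); edgeR adjusted p = 2.12e-05). This was the lowest p-value of the 9 factors, and 366 of all genes had a lower one. Tnpo3, the neighbor that overlaps Irf5 on the opposite strand, was not called (log2 fold change 0.08; edgeR adjusted p = 0.418). Of 7 other interferon regulatory factors on the lists, 6 were called lower. They ranged from Irf3 at -0.22 to Irf4 at -3.68, a factor of dendritic cells and alternatively activated macrophages that was at 5.21 ± 2.25 CPM against 65.9 ± 18.9 CPM (SD, n = 3). The call of Irf3 held in only 9 of the 14 alternative settings given below. Among the settings that lost it were an adjusted p under 0.05 and leaving out F4/80hi replicate 1, F4/80int replicate 2 or F4/80int replicate 3. Irf8, the monocyte and dendritic cell factor, was not called (log2 fold change -0.11; 95% CI -0.34 to 0.13).

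Klf4, which is required for monocyte differentiation, was at 141, 49.8 and 102 CPM in F4/80hi MAMs and at 455, 269 and 311 CPM in F4/80int MAMs. The subsets did not overlap, but the F4/80hi libraries were spread widely, with a coefficient of variation of 47.0%, the largest of the 9 factors. The mean was 3.53-fold lower in F4/80hi MAMs (log2 fold change -1.82; 95% CI -2.63 to -1.01; edgeR adjusted p = 0.0033), the largest fall among the 9. Klf10 and Klf13 were called lower as well, by -0.56 and -1.10, whereas Klf2, Klf3 and Klf6 were not called.

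Klf4 is also an early-response gene, and its level was therefore set beside 14 early-response and heat-shock genes such as Fos, Jun, Egr1 and Hspa1a, a list added after the values had been seen. Of these 14 genes, 11 were called lower and none higher in F4/80hi MAMs by edgeR. Their summed level was 10860, 9157 and 10810 CPM in F4/80hi replicates 1, 2 and 3, and 19650, 16260 and 17970 CPM in F4/80int replicates 1, 2 and 3. Within each subset the library with the lowest sum had the lowest Klf4 level and the library with the highest sum had the highest Klf4 level. The share of mitochondrial transcripts was 1.48% to 1.73% in F4/80hi libraries and 1.04% to 1.21% in F4/80int libraries. The part of these genes' response in the Klf4 difference was not tested.

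**Figure D2:**
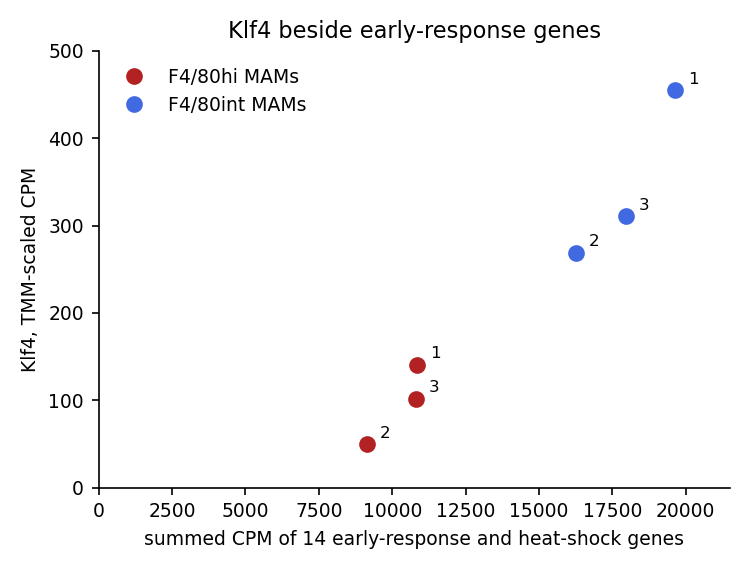
Klf4 level in TMM-scaled CPM against the summed CPM of 14 early-response and heat-shock genes, with 1 point per library and its replicate number. The 3 F4/80hi libraries sit between 9157 and 10860 CPM on the horizontal axis and at 141 CPM or less on the vertical axis, and the 3 F4/80int libraries lie higher on both axes.

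The start regions of Cebpb, Irf5 and Klf4 are shown because these factors fell together without overlap between subsets. RefSeq start windows of GRCm38.p6 were matched for 7 of the 9 factors, all but Maf and Spi1. The lines give the 250 bases before the annotated start of each gene, 5′ to 3′ on the strand of the gene, in GRCm38.p6 positions, and capitals mark a match on either strand to one of the motifs searched.
Cebpb, chr2:167688665-167688914, + strand: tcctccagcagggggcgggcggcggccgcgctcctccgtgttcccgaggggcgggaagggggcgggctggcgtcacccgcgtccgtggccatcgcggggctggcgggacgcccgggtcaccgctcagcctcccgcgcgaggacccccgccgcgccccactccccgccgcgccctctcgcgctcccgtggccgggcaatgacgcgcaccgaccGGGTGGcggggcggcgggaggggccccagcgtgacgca
Irf5, chr6:29526375-29526624, + strand: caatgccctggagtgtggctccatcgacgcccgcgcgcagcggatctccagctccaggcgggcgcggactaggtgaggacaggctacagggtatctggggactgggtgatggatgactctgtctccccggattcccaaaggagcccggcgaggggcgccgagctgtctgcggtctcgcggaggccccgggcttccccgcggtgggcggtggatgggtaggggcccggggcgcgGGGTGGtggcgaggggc
Klf4, chr4:55532476-55532725, - strand: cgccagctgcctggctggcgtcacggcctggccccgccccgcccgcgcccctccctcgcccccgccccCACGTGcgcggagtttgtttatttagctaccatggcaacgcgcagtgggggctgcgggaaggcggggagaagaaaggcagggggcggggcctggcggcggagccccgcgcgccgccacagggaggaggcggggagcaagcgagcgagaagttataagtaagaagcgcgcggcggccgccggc
The G and C content of these stretches was 81.6% for Cebpb, 72% for Irf5 and 74% for Klf4, against a median of 52.4% over 32851 windows. The capitals in Cebpb and Irf5 are matches to CCACCC, the core of KLF sites, which 28.1% of all windows hold, and those in Klf4 are the E-box CACGTG, present in 6.02% of windows. No match to the PU.1 site GAGGAAGT (2.44% of windows), the C/EBP site TTGCNNAA (9.56%), the core of MAF elements TGCTGAC (3.81%), the nuclear receptor core AGGTCA (14%), an IRF motif (2.98%) or the M-box TCACGTGA (0.785%), which contains the E-box, lay in these 3 stretches. Such matches describe the letters only.

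Of the nuclear receptors, Nr1h3, the sterol sensor LXRα, was at 17.3, 21.2 and 13.5 CPM in F4/80hi MAMs and at 21.0, 40.2 and 35.3 CPM in F4/80int MAMs. F4/80hi replicate 2 lay just above F4/80int replicate 1, so the subsets overlapped. The log2 fold change was -0.89 (95% CI -1.46 to -0.33; edgeR adjusted p = 0.0175), and the edgeR adjusted p ranged from 0.00237 to 0.0621 when 1 library was left out at a time. In the exact two-sided permutation test over the 6 libraries Nr1h3 had p = 0.2, whereas Maf, Spi1, Cebpb, Irf5 and Klf4 had p = 0.1, the smallest that 3 libraries against 3 allow. Nr1h2, which encodes LXRβ and is expressed in most tissues, was called lower by -0.56. Rxra, the shared partner of LXR and PPAR receptors, was at 83.9 ± 12.8 CPM against 55.0 ± 3.50 CPM (SD, n = 3) and was called higher (log2 fold change 0.61; edgeR adjusted p = 0.00348).

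Pparg was scarce in both subsets, at 10.1, 8.79 and 7.65 CPM in F4/80hi MAMs and 9.03, 8.30 and 11.3 CPM in F4/80int MAMs. The subsets overlapped, and the log2 fold change was -0.11 (95% CI -0.51 to 0.29; edgeR adjusted p = 0.634). Mitf was at 34.4, 27.0 and 34.9 CPM in F4/80hi MAMs and at 29.4, 29.6 and 39.3 CPM in F4/80int MAMs, again with overlap. Its log2 fold change was -0.03 (95% CI -0.36 to 0.31; edgeR adjusted p = 0.893). Neither interval reached the fold change of Maf or of Klf4. The lysosomal relatives of Mitf differed from each other: Tfeb fell by 1.00 on the log2 scale, from 78.5 ± 1.57 to 39.2 ± 2.18 CPM (SD, n = 3), whereas Tfec was called higher by 0.54 and Tfe3 by 0.22. The call of Tfe3 was lost at an adjusted p under 0.05 and without F4/80hi replicate 1, F4/80hi replicate 3, F4/80int replicate 1 or F4/80int replicate 2.

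**Figure D3:**
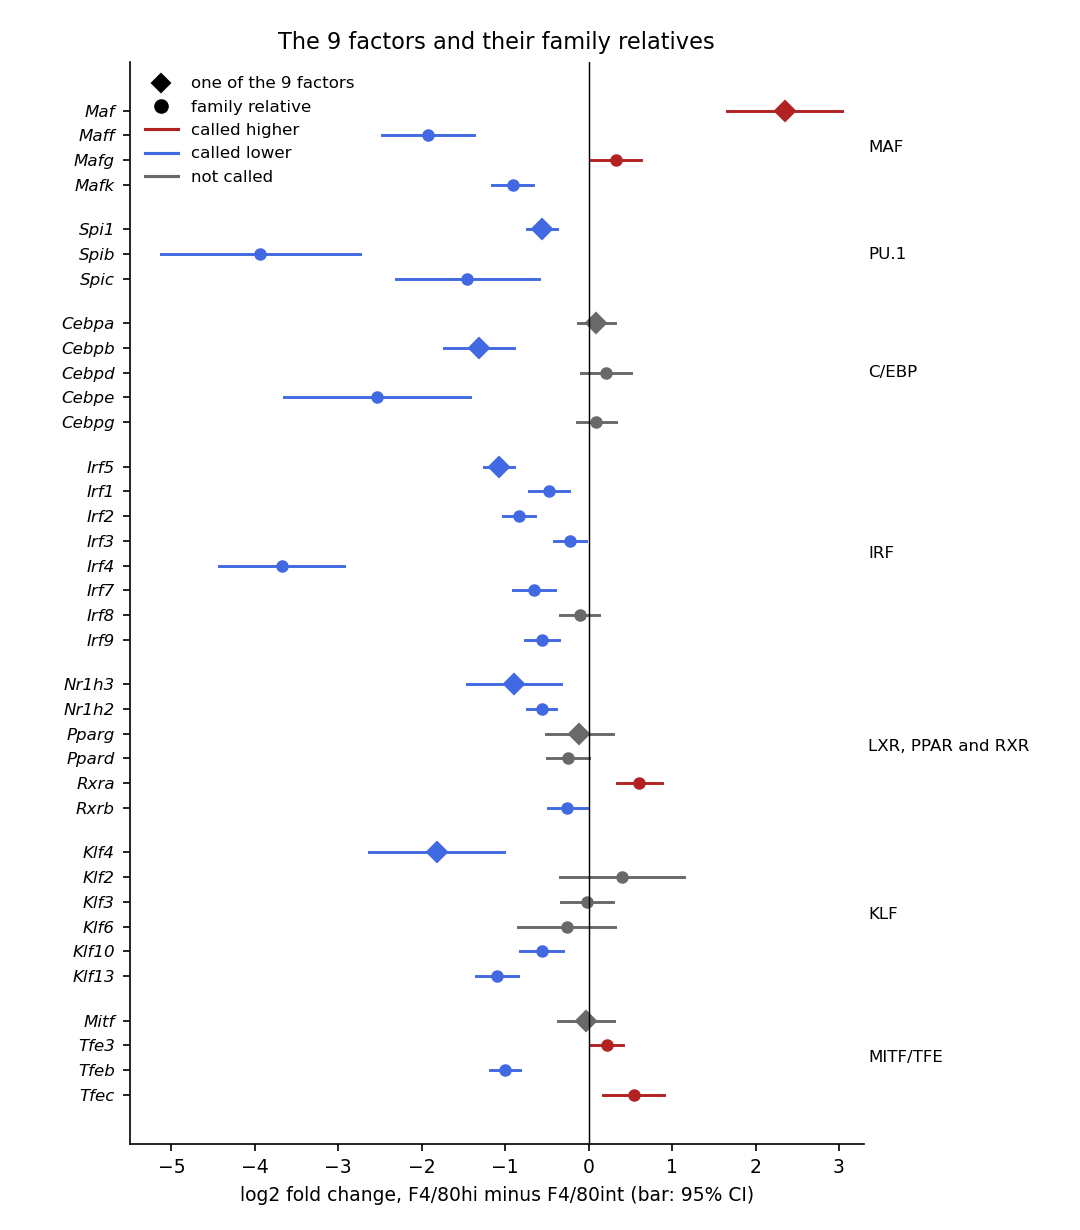
Log2 fold change of F4/80hi over F4/80int MAMs with its 95% confidence interval for the 9 factors (diamonds) and 27 family relatives (circles), colored by call. Maf stands at 2.35 while the small MAF genes lie between -1.92 and 0.33, and 6 of 7 other interferon regulatory factors were called lower with Irf5.

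Among the 27 family relatives, 4 were called higher and 16 lower. Over the wider list of 72 other myeloid transcription factors, which includes them, 70 were measured, and 9 were called higher and 44 lower, with a median log2 fold change of -0.64. The share called was 75.7%, against 54.9% of all genes. Bhlhe41, which acts in tissue macrophages of the lung, was at 62.3 ± 5.30 CPM against 8.27 ± 3.31 CPM (SD, n = 3; log2 fold change 2.93; edgeR adjusted p = 6.12e-05). Its relative Bhlhe40, a factor of cytokine-producing and cycling cells, went the other way, at 46.9 ± 11.0 CPM against 734 ± 150 CPM (log2 fold change -3.97; edgeR adjusted p = 5.2e-06). Tcf4, the E protein of plasmacytoid dendritic cells, was called higher by 0.67, and Zbtb46 had the largest fall of the list among separated genes that averaged 5 CPM or more (log2 fold change -4.94; edgeR adjusted p = 4.51e-06).

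Levels of different factors can be compared only per length, and CPM per kilobase of merged exons was used. In F4/80hi MAMs the order was Cebpb at 252, Spi1 at 138, Cebpa at 101, Maf at 70.5, Irf5 at 37.0, Klf4 at 31.0, Nr1h3 at 3.43, Mitf at 3.16 and Pparg at 1.27 CPM per kilobase, each a mean of 3 libraries. Per kilobase of the longest transcript, Maf was level with Cebpa instead, at 103 and 101 CPM per kilobase with overlapping ranges. On merged exons the ranges of Irf5 and Klf4 overlapped, and so did those of Nr1h3 and Mitf. In F4/80int MAMs the order was Cebpb at 626, Spi1 at 203, Klf4 at 109.5, Cebpa at 94.7, Irf5 at 77.9, Maf at 13.9, Nr1h3 at 6.36, Mitf at 3.23 and Pparg at 1.37 CPM per kilobase. There the ranges of Klf4 and Cebpa overlapped. Maf therefore stood above Irf5 and Klf4 in F4/80hi MAMs and below both in F4/80int MAMs, and Cebpb and Spi1 led in both subsets.

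Known targets of the factors were then counted. Their lists were drawn up with earlier results of these data known, so the counts describe these data and are not independent of them. Of 121 listed genes 109 were measured, and 30 were called higher and 50 lower (73.4% called, against 54.9% of all genes), with a median log2 fold change of -0.28. The 14 measured targets of MAF had 12 members called higher and 2 lower, with a median of 2.10, but 7 of the 14 are also on a macrophage or Kupffer cell marker list. Among the 12 were Il10 and Cd163, which overlapped between subsets (edgeR adjusted p = 0.0993 and 0.0768). The number called higher was 10 at an adjusted p under 0.05. It was also 10 without F4/80hi replicate 1, F4/80hi replicate 3, F4/80int replicate 2 or F4/80int replicate 3. Gas6, a bridging ligand for the uptake of dying cells, was at 243, 222 and 303 CPM against 2.13, 2.15 and 4.54 CPM (log2 fold change 6.47 ± 0.29 (SE); edgeR adjusted p = 2.74e-06). Folr2, a folate receptor of resident macrophages, was at 89.6, 55.1 and 94.0 CPM against 3.55, 2.22 and 8.35 CPM (log2 fold change 4.11). The 2 that fell were Axl, a receptor of Gas6 (log2 fold change -0.44), and Timd4, a phosphatidylserine receptor of resident macrophages named after its value was seen (log2 fold change -4.44).

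The targets of the factors that fell did not all follow 1 direction. Of 22 PU.1 targets, 5 were called higher and 10 lower, with a median of -0.28. One of those called higher is Adgre1, whose direction the sorting gate fixed, 5 of the 22 are also macrophage or neutrophil markers, and the number called higher was 3 without F4/80int replicate 1 or F4/80int replicate 2. Csf1r, the receptor for macrophage colony-stimulating factor, was called higher (2951 against 1892 CPM; log2 fold change 0.64), and Csf2rb, a receptor chain for GM-CSF, and Itgb2, the β2 integrin, were called lower (log2 fold changes -2.02 and -1.29). Of 18 measured C/EBP targets 13 were called lower and 2 higher, with a median of -3.25. The 13 included Ngp and S100a9, neutrophil genes that were too low in F4/80hi MAMs for a fold change to be read. Ngp was at 0.045, 0 and 0 CPM in F4/80hi MAMs and at 51.4, 1.30 and 5.06 CPM in F4/80int MAMs, and S100a9 was at 0.225, 0 and 0 CPM and at 32.8, 1.91 and 5.41 CPM. In both genes F4/80int replicate 1 held most of the level. Of the 18, 7 are also on the neutrophil or monocyte marker lists. The 2 that were called higher, Saa3 and Il10, lost their calls at an adjusted p under 0.05, and the number called higher was 1 without F4/80hi replicate 1, 4 without F4/80hi replicate 2 and 0 without F4/80hi replicate 3 or F4/80int replicate 2.

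The IRF5 targets were cytokine and chemokine genes, and of 9 measured 5 were called lower and 1 higher, with a median of -2.19. The number called higher was 2 without F4/80hi replicate 2 and 3 without F4/80int replicate 1. Il1b, the IL-1β gene, was at a mean of 148 CPM against 1409 CPM (log2 fold change -3.25 ± 0.40 (SE); edgeR adjusted p = 0.000289), and Il12b at 1.55 CPM against 16.2 CPM (log2 fold change -3.41). Ccl4, a chemokine gene, was called higher (103 against 58.2 CPM; log2 fold change 0.83; edgeR adjusted p = 0.0273). Tnf and Cxcl10 were not called, at log2 fold changes of 0.07 and -0.05. Of 10 KLF4 targets, 3 of them macrophage or monocyte markers, 5 were called lower and 2 higher. One of the latter was Cd163, a scavenger receptor at means of 4.59 and 2.42 CPM (edgeR adjusted p = 0.0768), and the number called higher was 1 without F4/80hi replicate 1, F4/80hi replicate 3, F4/80int replicate 2 or F4/80int replicate 3. Ly6c2, which marks classical monocytes, and Chil3, a chitinase-like gene, fell by 3.60 and 3.34 on the log2 scale, and Mrc1, the gene of CD206, was called higher (1372 against 228 CPM; log2 fold change 2.59).

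The 18 measured LXR targets, 3 of them macrophage or Kupffer cell markers, were divided evenly, with 6 called higher, 6 lower and 6 not called, and a median of -0.17. Those called higher included Apoe, the lipid carrier, at 10990 CPM against 2756 CPM (log2 fold change 2.00 ± 0.21 (SE)), and Abca1, the cholesterol exporter, at 507 against 113 CPM (log2 fold change 2.17 ± 0.29 (SE)). Smpdl3a and Apoc2 were called lower (log2 fold changes -2.28 and -0.91), as was Abcg1, a further cholesterol exporter named after its value was seen (log2 fold change -0.63). Of 14 PPARγ targets, 8 were called lower and 1, Angptl4, higher, with a median of -0.49. Olr1, a scavenger receptor, and Fabp5, a fatty acid binding protein, had log2 fold changes of -3.19 and -1.97, although Pparg itself was not called. Of 18 MITF targets, 4 were called higher and 6 lower, with a median of -0.03. The lysosomal genes Ctsd (2574 against 822 CPM) and Cd63 (259 against 53.9 CPM) were called higher, and the osteoclast genes Ctsk (3.93 against 228 CPM) and Atp6v0d2 (2.78 against 23.8 CPM) were called lower.

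**Figure D4:**
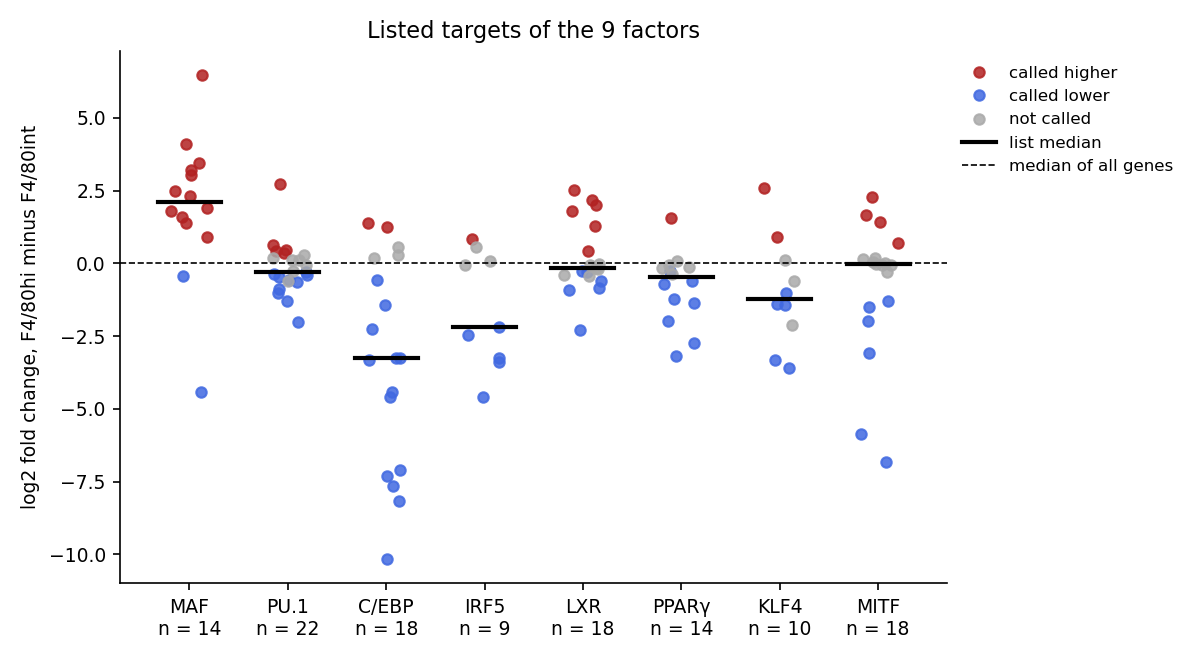
Log2 fold change of F4/80hi over F4/80int MAMs for the measured genes of 8 target lists, with 1 point per gene colored by call, the list median as a bar and the median of all genes as a dashed line. The MAF list has its median at 2.10, the C/EBP and IRF5 lists at -3.25 and -2.19, and the LXR and MITF lists at -0.17 and -0.03.

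In type 1 lymphocytes of the same model, only some of the factors were detected. NK cells and ILC1 had been sorted from pooled samples of metastasis-free liver (MFL) or liver metastases (LM), with 3 libraries in each of 4 populations, from another kit and count table, so these levels are not set against those of MAMs by a test. Cebpb at 43.6 to 258 CPM, Maf at 24.2 to 135 CPM and Klf4 at 22.5 to 107 CPM were above the level of 3 counts in all 12 libraries, and Irf5 was above it in 11 libraries at up to 82.2 CPM. Spi1 reached 5.05 CPM at most and exceeded 3 counts in 4 libraries, Cebpa and Nr1h3 in 3 libraries each and Mitf in 9. Pparg did not exceed 3 counts in any library, where 3 counts correspond to 0.220 to 0.334 CPM. Maf was at 87.3, 126 and 135 CPM in MFL ILC1, above the 30.5, 34.3 and 40.1 CPM of MFL NK cells, and the LM populations lay between 24.2 and 79.0 CPM. Within LM the ranges of CD49a- and CD49a+ NK cells overlapped for each of the 4 factors detected most often. Between libraries of the same replicate number, 3 of these factors were higher in CD49a+ NK cells each time. This comparison was not planned beforehand, and how many of all genes share the pattern was not counted. Cebpb was at 96.1, 50.7 and 258 CPM in CD49a+ NK cells and at 82.9, 43.6 and 204 CPM in CD49a- NK cells. Irf5 was at 15.3, 35.4 and 82.2 CPM against 7.35, 0.222 and 45.2 CPM, where 0.222 CPM is 2 counts. Klf4 was at 107, 38.6 and 91.4 CPM against 99.0, 37.2 and 68.0 CPM. Maf was at 40.0, 62.4 and 30.6 CPM against 79.0, 24.2 and 30.2 CPM, and none of these differences was tested.

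**Figure D5:**
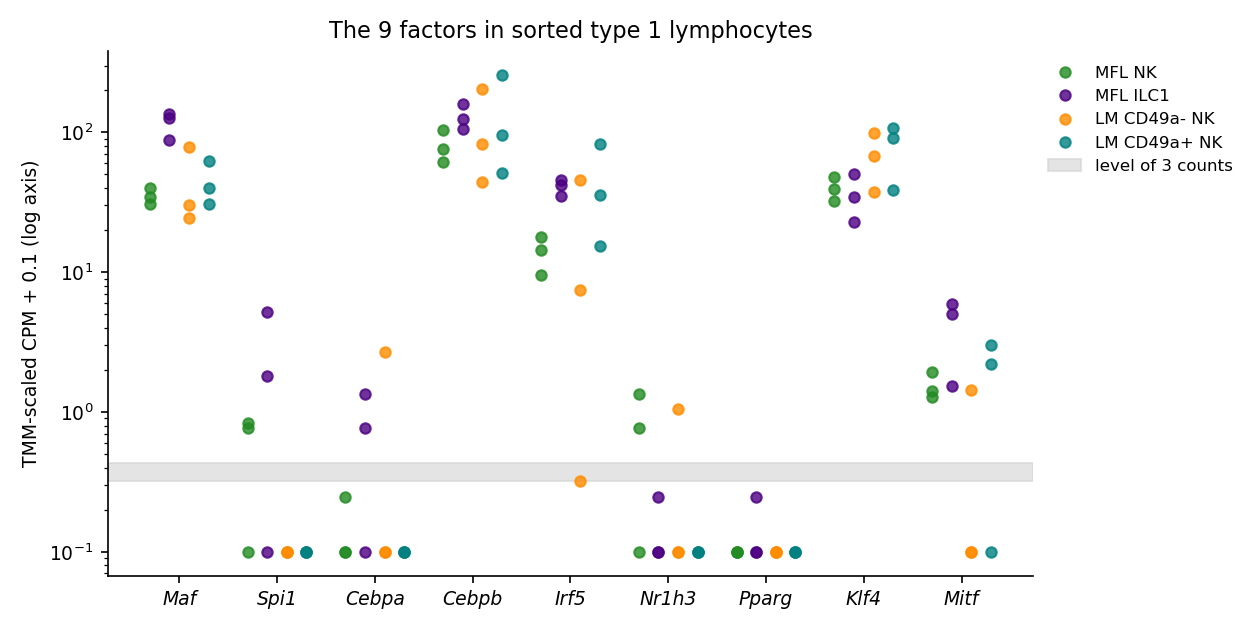
Level of the 9 factors in 12 lymphocyte libraries in TMM-scaled CPM plus 0.1 on a log axis, with 1 point per library and the gray band at the level of 3 counts. Cebpb, Maf and Klf4 lie above 20 CPM in all 12 libraries, and most points of Spi1, Cebpa, Nr1h3 and Pparg lie at or below the band.

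The genes whose levels followed each factor most closely over the 6 MAM libraries are given as a description, since 6 points in 2 clusters make high correlations common among 9831 genes. For Maf these were Il10rb, the shared chain of the IL-10 receptor, and Slc31a1, a copper transporter (Pearson r = 0.9989 and 0.9974 in log2 CPM). For Irf5 they were Slc44a2 and Lilra6 (both 0.9995), for Spi1 Skint3 and Atp11b (0.9999 and 0.9988), for Cebpb Ilrun and Vamp4 (0.997 and 0.9949) and for Klf4 Gbp3 and Actr2 (0.9954 and 0.9953). Nr1h3 was followed by Ube2g2 and Tbp (0.9907 and 0.9836). For the factors that were not called they were Cln3 and Cpeb2 for Mitf (0.9646 and 0.9437), Tecpr1 and Zbtb38 for Cebpa (0.9851 and 0.9767) and Dhrs7 and Atp6v1d for Pparg (0.9959 and 0.9765).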

How the data were processed

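RNA of the MAMs was extracted with a Norgen single-cell kit, and poly(A) libraries were made with a directional NEXTflex kit. The lymphocyte libraries were made with a SMARTer total RNA kit. The deposited MAM values are unnormalized estimated counts, given as whole numbers for 13759 genes with a lowest gene total of 37, and the deposited lymphocyte values are estimated counts of the same form. The submitters' processing notes name Trim Galore, Salmon v1.10.0, R v4.3.1, DESeq2 v1.40.2 and GRCm39 for the MAMs and Salmon v1.5.0 for the lymphocytes. For the step from transcripts to genes the paper names tximport, in a methods section that opens with the lymphocytes. It does not say whether MAM transcripts were summed to genes in the same way.

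Symbols and positions came from GENCODE vM39, which held 13726 of the 13759 IDs. The 6 MAM libraries were fitted with edgeR v4.0.16 in R v4.3.3 (TMM, filterByExpr, which kept all 13759 genes, and the quasi-likelihood test), with Benjamini-Hochberg adjustment over all genes. No replicate block was used. Exact permutation tests used scipy v1.17.1, and figures used matplotlib v3.10.9 in Python v3.11.15. Alternatives were DESeq2 v1.42.0, limma v3.58.1 (voom), other scalings, filters, a threshold of 0.05, a replicate block and each library left out. Totals were 8795721 to 14386834 counts in lymphocyte libraries, and floors of 3 counts cover counting error only.

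The 9 factors, their targets and the marker lists were chosen with earlier results of these data known. Named were the 9 factors, Adgre1, in each list the 2 called genes per direction that changed most (averaging 5 CPM or more, subsets separated), the 2 closest genes of each factor and the genes between Spi1 and Nr1h3. Other genes named in the text, among them family relatives, overlapping neighbors and early-response genes, were chosen after their values were seen. Not every family relative is reported here.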

Additional observations from a re-analysis of the deposited data

How the results depend on the processing

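The calls of the 9 factors held under all 14 alternatives, and 57 of the 70 genes followed kept their direction and side of the threshold in each. The signs of Pparg and Mitf, neither called, turned. With single libraries left out, the log2 fold change of Pparg ranged from -0.215 to 0.0301 (positive without F4/80int replicate 3) and that of Mitf from -0.108 to 0.123 (positive without F4/80hi replicate 2 or F4/80int replicate 3). Of the family relatives followed, Klf3 and Cebpg, also not called, turned as well. Klf3 ranged from -0.177 to 0.0545 and Cebpg from -0.00382 to 0.143. With upper-quartile scaling Mitf was at 0.0635 and Klf3 at 0.0685. Upper-quartile scaling moved the median log2 fold change of all genes from 0.01 to 0.10 and the calls from 3821 higher and 3734 lower to 4682 and 3134. The cause was not tested.

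Per kilobase of the longest transcript in place of merged exons, a shorter length by construction, F4/80hi and F4/80int levels were 103 and 20.2 CPM for Maf, 205 and 302 for Spi1, 41.2 and 86.6 for Irf5, 5.55 and 10.3 for Nr1h3, 2.10 and 2.26 for Pparg and 6.47 and 6.60 for Mitf. In F4/80hi MAMs the ranges of Maf and Cebpa, and of Mitf and Nr1h3, then overlapped.

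Small counts over target lists moved with the setting. The number called higher for C/EBP, 2 as reported, was 1 with RLE scaling, 0 with limma-voom, with genes averaging 5 CPM or more and at the stricter threshold, and 4 with upper-quartile scaling. For IRF5, 1 as reported, it was 2 with DESeq2 and with upper-quartile scaling. For KLF4, 2 as reported, it was 1 with limma-voom, with the 5 CPM filter and at the stricter threshold. For PPARγ, 1 as reported, it was 0 with the 5 CPM filter and 2 with upper-quartile scaling. For MAF, 12 as reported, it was 11 with RLE scaling, 10 with limma-voom and at the stricter threshold, and 8 with the 5 CPM filter. The 2 MAF targets called lower were 1 with that filter.

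Replicate numbers gave little sign of pairing over all genes. Deviations of same-numbered libraries correlated at 0.172, -0.0145 and 0.0272, and F4/80hi replicate 2 correlated best with F4/80int replicate 3, at 0.0547. The erythroid markers were nevertheless highest in replicate 3 of both subsets. With the replicate block 3791 genes were called higher and 3721 lower, 1 and 5 of them among the 9 factors, and 4 C/EBP and 2 IRF5 targets were called higher. The filter on low counts removed no gene. Depth limited the values of genes near 0 CPM in F4/80hi MAMs, such as Ngp and S100a9, and the number of libraries, 3 per subset, limited the exact tests.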
